A study of Mus musculus with 9 samples.

Results

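Messenger RNA of 3T3-L1 cells exposed to X-3 was compared with that of untreated cells. The comparison holds 6 of the 9 arrays of the series, the 3 with X-3 and the 3 labelled control in their titles; the other 3 carry RNA of cells given X-1. 3T3-L1 is an established mouse fibroblast line that is widely used as a preadipocyte, a cell committed to the fat lineage that has not yet filled with lipid, and the labels call these cells preadipocytes. Cells of all groups were grown with 10% fetal bovine serum and then kept without serum for 48 h. X-3 and X-1 were each given at 70 µM for 24 h in 5% CO2. The series title describes both as derivatives of mangiferin, a plant xanthone glucoside, and gives them no other name. The labels name no genotype, allele or clone. Whether the untreated cells received the solvent of the compounds is not given in the sources used here.

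In cells with enough oxygen, prolyl hydroxylases that need oxygen, iron and 2-oxoglutarate mark the HIF alpha subunits, and the VHL ubiquitin ligase then sends them to the proteasome. When the hydroxylases are slowed, HIF binds with its partner Arnt to short DNA elements and switches on genes for glucose uptake, glycolysis, lactate export, blood vessel growth and fat storage, while use of pyruvate and fatty acids by mitochondria is turned down. Serum-starved fibroblasts mostly rest outside the cell cycle, and growth factor, stress and inflammatory signals each raise a group of immediate early genes in them.

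Each value below is the log2 processed intensity of a probe minus that array's 75th percentile over gene probes, so that 0 marks the 75th percentile and a difference of 1 is a 2-fold change. A gene was tested where its probe was well above background on all 3 X-3 arrays or all 3 control arrays, and it was called at an adjusted p under 0.05 in limma over 16541 genes and unnamed features. Values are listed in the order of replicates 1, 2 and 3, and each gene said to have risen or fallen passed that threshold. Expression was higher with X-3 than in control for 4428 genes (26.8%) and lower in 4220 (25.5%), so 52.3% were called. At least 2-fold changes made up 2257 of the higher calls (13.6% of all tested) and 2141 of the lower (12.9%). With the arrays set to their median instead, the split was 2610 higher and 4577 lower, and with spike-in scaling, which uses replicates 2 and 3 alone, it was 1942 higher and 9149 lower. Leaving out replicate 1 without a change of scaling gave 6006 higher and 5881 lower, so counts with spike-in scaling differ in both choices. With spike-in scaling the standard error was 0.254 alike for genes as unlike in spread as Abca9, Actb and Cd14. A call there is a cut on the size of the difference and not a test against each gene's own spread. Over all genes the median shifted by −0.23 under median scaling and by −0.70 under spike-in scaling, so every difference is relative to the 75th percentile. Fewer cells that express a gene and less of its RNA per cell cannot be told apart in such bulk RNA.

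The first X-3 array stood apart from the other X-3 arrays. Across genes, which are not independent replicates, its levels correlated at r of 0.9748 and 0.9757 with X-3 replicates 2 and 3, which correlated at 0.9971 with each other. On the first principal component of the 6 arrays (77.8% of the variance) the X-3 arrays lay together at 68.5, 70.2 and 75.2 and the controls at −71.8 to −70.7. The second component (14.8%) set X-3 replicate 1 at 61.5 and the other X-3 arrays at −30.9 and −29.0. The array was more than 1 log2 unit below the mean of X-3 replicates 2 and 3 in 1303 genes and above it in 468, while replicates 2 and 3 lay that far apart in 111. Control replicate 1, from the same slide, was below its partners in 137 genes and above in 389. Slide 1 also differed in scan day and software version and held no spike-in RNA, and its part in this gap was not tested.

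The genes low on X-3 replicate 1 tended to be dim and often had no symbol. Of the 1303, 367 were not well above background on that array, against 3 on X-3 replicate 2, and 45.2% had a reference symbol, against 81.5% of all genes tested. Their median level on X-3 replicates 2 and 3 was −1.90, against −0.22 for all genes. Malat1, a long nuclear RNA, had values of 5.05, 3.08 and 4.12 in the controls and 1.13, 4.98 and 4.76 with X-3. Ncl, a nucleolar protein, had values of 3.46, 1.49 and 2.4 in the controls and 1.93, 4.0 and 4.42 with X-3. In both, X-3 replicate 1 was the lowest X-3 array and fell within the range of the controls or below it. Slc4a7, a bicarbonate transporter, showed the opposite gap, with values of 5.91, 5.14 and 4.75 in the controls and 6.42, 1.26 and 2.09 with X-3. Hmox1, the inducible haem oxygenase, spread as widely among controls, with values of 5.07, 1.6 and 3.39 in the controls and 3.22, 4.72 and 4.93 with X-3. None of these 4 was called with all 6 arrays (adjusted p = 0.74, 0.301, 0.224 and 0.407), and without X-3 replicate 1 Ncl (1.76, adjusted p = 0.0363) and Slc4a7 (−3.59, adjusted p = 0.000779) were. Sertad3, a transcription cofactor, was lowest on that array (−3.27, −0.63 and −0.68 on the X-3 arrays, 2.15, 0.43 and 1.5 on the controls), and its call was lost without control replicate 1 or 3 (adjusted p = 0.0735 and 0.0589).

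Leaving out X-3 replicate 1 raised the number of calls and turned none around. Without it 10487 genes (63.4%) were called, 5273 higher and 5214 lower. Of these, 8434 had the same call with all arrays and 2053 were gained, 214 calls were lost, and 0 changed direction. Among the genes called with all arrays, 8628 of 8648 had the same sign on all 3 slides. These genes were called from the same arrays, and the fits share every array but X-3 replicate 1. Agreement in direction was thus largely set by the selection. The median SD of a gene over the X-3 arrays was 0.225, against 0.157 for control and 0.167 for X-1, and it was 0.077 over X-3 replicates 2 and 3 alone. Differences below use all 6 arrays, with the counts without X-3 replicate 1 beside them.

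**Figure D1:**
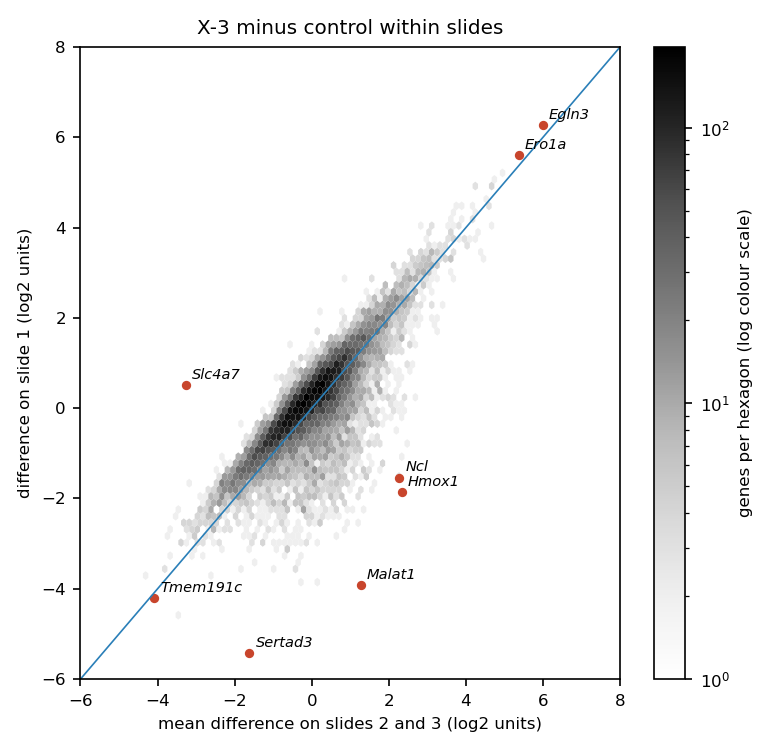
Difference between X-3 and control on slide 1 (vertical axis, log2 units) against the mean difference on slides 2 and 3 (horizontal axis, log2 units), for genes binned in hexagons shaded by the number of genes on a log scale. The line marks equal values, Egln3, Ero1a and Tmem191c lie close to it, and a cloud of genes below it, with Malat1, Ncl and Hmox1 marked, is lower on slide 1.

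The labelled cell type was checked against its markers. All 14 preadipocyte and fibroblast markers were well above background on all 6 arrays, and 4 rose and 4 fell. Of 10 mature adipocyte markers with a probe, 1 was above background on all 6 arrays. Adipoq, Plin1 and Retn were above it on 0 control and 2 X-3 arrays, Cidec on 1 and 2, and Lep, Cfd, Aqp7 and Adrb3 on none. Adgre1, Itgam, Ms4a1, Pecam1, Cdh5, Tie1, Epcam and Cdh1, which define macrophages, myeloid and B cells, endothelium and epithelium, were above background on none.

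HIF targets had the highest median of the gene lists examined. Of 30 HIF target genes outside glycolysis that were tested, 25 rose and 2 fell (26 and 2 without X-3 replicate 1), against 26.8% and 25.5% of all genes. Their median difference was 2.58, against 0.04 over all genes, and was 2.75, 2.66 and 2.49 on slides 1, 2 and 3. With dim genes at their bound the median was 2.50. The X-3 and control arrays did not overlap in most of them, with X-3 above in 25 of the 30 and below in 3, where over all genes they did not overlap in 62.5%, with X-3 above in 32.7% and below in 29.8%.

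The promoters of 4 of the genes that rose are shown because each holds the letters ACGTG, the core of the hypoxia response element, which are in capitals together with the same core read on the other strand, CACGT. The sequences are RefSeq promoter windows of GRCm38.p6 and give the 250 bases before the start of the gene, 5′ to 3′ on its strand.
Egln3 (chr12:54203875-54204124, minus strand): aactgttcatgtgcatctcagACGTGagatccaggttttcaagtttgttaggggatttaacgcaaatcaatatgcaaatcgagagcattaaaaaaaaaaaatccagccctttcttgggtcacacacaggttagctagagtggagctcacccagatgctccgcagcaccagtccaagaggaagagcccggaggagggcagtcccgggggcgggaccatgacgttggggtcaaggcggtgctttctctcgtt
Bnip3 (chr7:138909507-138909756, minus strand): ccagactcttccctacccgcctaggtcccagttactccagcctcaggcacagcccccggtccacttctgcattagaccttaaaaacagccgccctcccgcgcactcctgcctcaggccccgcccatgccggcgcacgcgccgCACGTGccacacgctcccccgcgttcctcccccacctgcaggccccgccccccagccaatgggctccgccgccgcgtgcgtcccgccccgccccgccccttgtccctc
Slc2a1 (chr4:119108495-119108744, plus strand): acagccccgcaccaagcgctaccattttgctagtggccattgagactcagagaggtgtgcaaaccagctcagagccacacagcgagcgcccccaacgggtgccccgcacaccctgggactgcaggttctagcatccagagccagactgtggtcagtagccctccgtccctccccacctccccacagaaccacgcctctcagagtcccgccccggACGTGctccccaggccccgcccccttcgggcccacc
Ldha (chr7:46845554-46845803, plus strand): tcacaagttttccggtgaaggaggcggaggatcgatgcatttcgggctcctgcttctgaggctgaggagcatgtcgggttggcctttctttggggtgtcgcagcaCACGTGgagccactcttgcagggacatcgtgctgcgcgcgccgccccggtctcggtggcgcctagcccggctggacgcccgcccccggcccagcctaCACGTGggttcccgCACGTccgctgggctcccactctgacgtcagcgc
Egln3 had 1 match, 229 bases before the start, and Slc2a1 had 1, at 36 bases. Bnip3 had 2 overlapping matches, since CACGTG reads as the core on both strands, and Ldha had 5. Among 26 windows of 20 tested HIF target genes in this list, 15 (57.7%) held ACGTG on either strand. For glycolysis genes it was 13 of 36 windows (36.1%), for fatty acid oxidation genes 4 of 32 (12.5%), for mitosis genes, which mostly fell, 15 of 51 (29.4%), for all tested genes 20.9% and for all mouse windows 16.6%. A match describes the letters only and is not evidence of binding.

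Egln3, an oxygen-sensing prolyl hydroxylase that is itself a HIF target, had values of −2.48, −2.5 and −2.35 in the controls and 3.78, 3.45 and 3.69 with X-3. The groups were more than 5 units apart, and among named genes well above background on all 6 arrays Egln3 had the largest rise, by 6.08 ± 0.14 (SE; 67.7-fold, limma adjusted p = 1.24e-05, n = 3 per group). Ero1a, which drives disulfide bond formation in the endoplasmic reticulum, had values of 0.86, 0.84 and 0.78 in the controls and 6.46, 6.13 and 6.24 with X-3 and rose by 5.45 ± 0.13. Bnip3, which directs mitochondria to autophagy, had values of 1.1, 1.9 and 1.78 in the controls and 5.82, 5.78 and 5.93 with X-3 and rose by 4.25 ± 0.22. In none of the 3 did the groups overlap, and X-3 replicate 1 lay within 0.4 units of the other X-3 arrays. Vegfa, the main factor of blood vessel growth, rose by 2.33 ± 0.15 and Adm, a vasodilator peptide, by 2.6 ± 0.15. Edn1, endothelin, and Stc2, a secreted glycoprotein, went the other way: Edn1 fell by 1.07 ± 0.23 and Stc2 by 1.27 ± 0.15. Both were close to background with X-3 (above it on 1 and 2 of 3 arrays), and neither was called after normexp background correction (adjusted p = 0.153 and 0.0814).

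The oxygen-sensing machinery itself moved less evenly. Of 12 genes for HIF subunits and oxygen sensing, 7 rose and 2 fell (6 and 2 without X-3 replicate 1, 2 and 2 with spike-in scaling), against 26.8% and 25.5% of all genes. Their median was 0.51. Egln1, the main prolyl hydroxylase, had values of −0.3, −0.03 and −0.3 in the controls and 2.71, 2.9 and 3.06 with X-3 and rose by 3.1 ± 0.15. Vhl, the recognition subunit of the ligase, had values of 1.28, 1.5 and 1.38 in the controls and 3.05, 3.06 and 1.98 with X-3, so that X-3 replicate 3 was the array nearest the controls, and rose by 1.31 ± 0.3. Hif1a rose by 0.93 ± 0.2 (adjusted p = 0.00763), and with spike-in scaling neither Vhl (0.38) nor Hif1a (0.03) was called. Epas1, the other main alpha subunit, had values of 2.24, 2.23 and 2.07 in the controls and 1.47, 1.01 and 0.77 with X-3 and fell by 1.1 ± 0.2. For Arnt, the shared partner, the brightest probe fell by 1.3 ± 0.39 (adjusted p = 0.0287), but the 4 probes lay between −1.3 and 1.37, with a mean of 0.18. The Arnt call was also lost without control replicate 1 or 3 (adjusted p = 0.0857 and 0.0645) and with the slide as a block (adjusted p = 0.0566).

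Genes of glucose uptake and glycolysis mostly rose, where 26.8% of all genes rose and 25.5% fell. Of 20 tested genes 16 rose and 4 fell (the same without X-3 replicate 1), with a median of 2.30 and of 2.42, 2.36 and 2.36 by slide. Eno1, the glycolytic enolase, had values of −0.09, 0.48 and 0.55 in the controls and 3.29, 3.94 and 4.0 with X-3 and rose by 3.43 ± 0.26. The glucose transporter Slc2a1 had values of 4.52, 3.76 and 3.69 in the controls and 7.51, 7.36 and 7.22 with X-3 and rose by 3.37 ± 0.24 (10.4-fold). Pfkl, the liver-type phosphofructokinase, had values of 0.37, 0.7 and 0.69 in the controls and 3.8, 3.86 and 3.54 with X-3 and rose by 3.14 ± 0.16. Control replicate 1 was high for Slc2a1 and low for the others, and the groups stayed more than 2.5 units apart in all of them. Pfkfb3, which makes the activator of phosphofructokinase, rose by 2.92 ± 0.12, and Gapdh, often used as a reference gene, by 2.55 ± 0.17 (5.85-fold). Actb, another reference gene, had values of 3.77, 2.56 and 2.8 in the controls and 3.47, 3.67 and 3.38 with X-3, a difference of 0.47 ± 0.31 (adjusted p = 0.251) that was called without control replicate 1 (0.83, adjusted p = 0.01) and with the mean of its probes (1.16, adjusted p = 0.00521). By contrast Aldoc, the brain-type aldolase, fell by 1.71 ± 0.15, and Pfkm, the muscle-type phosphofructokinase, by 0.71 ± 0.13. The brightest probe of Pfkfb2 fell by 1.44 ± 0.15, but its 4 probes lay between −1.8 and 1.37, with a mean of −0.31 that missed the threshold. Pfkfb4 fell by 0.56 ± 0.15 (adjusted p = 0.0185), a call lost without control replicate 2 or X-3 replicate 2 (adjusted p = 0.0523 and 0.0511).

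Genes that act on pyruvate and lactate changed in both directions, where 26.8% of all genes rose and 25.5% fell. Of 16 genes of lactate and pyruvate handling, 8 rose and 4 fell (8 and 5 without X-3 replicate 1, 5 and 8 with spike-in scaling), with a median of 0.32. Slc16a3, the lactate exporter of glycolytic cells, had values of −2.94, −2.57 and −2.7 in the controls and 1.11, 1.18 and 1.25 with X-3 and rose by 3.92 ± 0.14 (15.1-fold). Ldha, which makes lactate, had values of 6.35, 6.26 and 6.34 in the controls and 8.24, 8.05 and 8.14 with X-3 and rose by 1.83 ± 0.12, with 3.21 at its other probe. Pdk1, the kinase that shuts pyruvate dehydrogenase, rose by 1.59 ± 0.16. The members that fell were Pcx, pyruvate carboxylase (−1.64 ± 0.13), Ldhb, the heart-type lactate dehydrogenase (−1.27 ± 0.15), and the mitochondrial pyruvate carrier subunits Mpc1 (−1.16 ± 0.16) and Mpc2 (−0.8 ± 0.26). The call on Mpc2 was lost without control replicate 1, 2 or 3 and without X-3 replicate 2 or 3 (adjusted p = 0.0706 to 0.111).

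Of 13 glycogen genes 7 rose and 4 fell (7 and 5 without X-3 replicate 1, 5 and 6 with spike-in scaling), with a median of 0.81. Ppp1r3b, which brings protein phosphatase to glycogen, had values of −5.32, −5.39 and −5.26 in the controls and −1.59, −1.78 and −1.6 with X-3 and rose by 3.67 ± 0.12. Gys1, the glycogen synthase of non-hepatic cells, had values of −2.2, −1.75 and −1.73 in the controls and 0.8, 1.3 and 1.36 with X-3 and rose by 3.04 ± 0.21. Ppp1r3d, a relative of Ppp1r3b, went the other way, from 3.89, 3.74 and 3.68 to 1.11, 0.65 and 0.65, a fall of 2.96 ± 0.17. Pygm, muscle glycogen phosphorylase, was not well above background in the controls and was at least 3.37-fold higher with X-3 (adjusted p = 6.58e-05; not called after normexp, adjusted p = 0.0971). Such bounds set the mean of the measured group against the dim arrays, each at its own value or its floor, whichever was higher. The floor was the lowest signal called well above background on that array, so it is not a strict detection limit. Of 35 genes of fatty acid and triglyceride synthesis 12 rose and 8 fell (12 and 12 without X-3 replicate 1, 5 and 21 with spike-in scaling), against 26.8% and 25.5% of all genes, with a median of 0.02. Hilpda, which inhibits lipolysis at the lipid droplet, had values of 1.73, 1.63 and 1.61 in the controls and 5.28, 5.37 and 5.32 with X-3 and rose by 3.66 ± 0.11. Dgat2, which adds the last acyl chain to triglyceride, rose by 2.85 ± 0.14, Plin2, a lipid droplet coat protein, by 1.88 ± 0.12, and Gpam, which starts glycerolipid synthesis, by 1.84 ± 0.14. Plin3, another droplet coat protein, fell by 1.67 ± 0.13.

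**Figure D2:**
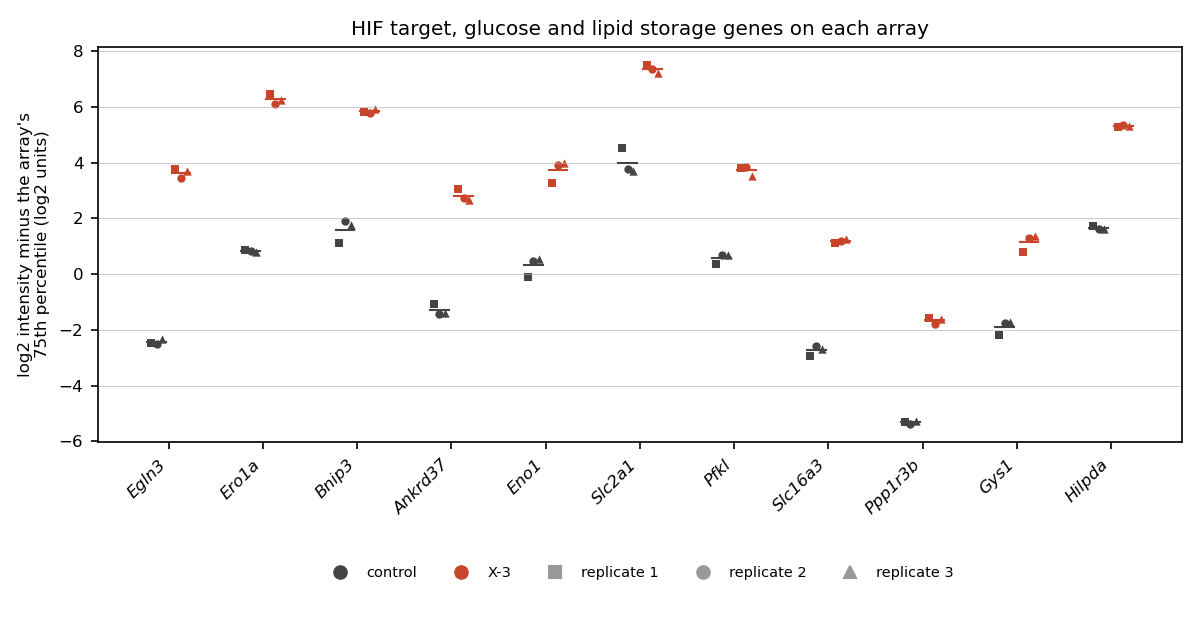
Normalised log2 intensity (vertical axis, log2 units relative to each array's 75th percentile) of 11 HIF target, glucose and lipid storage genes on each of the 3 control and 3 X-3 arrays; symbols mark the replicate and short lines the group means. In each gene shown all X-3 arrays lie above all control arrays, and X-3 replicate 1 is the lowest X-3 array for Eno1 and Gys1.

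Genes of oxidative metabolism were lower with X-3 across several lists, where 25.5% of all genes fell and 26.8% rose. Of 21 genes of the tricarboxylic acid cycle 10 fell and 0 rose (11 and 0 without X-3 replicate 1, 19 and 0 with spike-in scaling), with a median of −0.35. Idh2, the mitochondrial isocitrate dehydrogenase, had values of 1.13, 1.27 and 1.14 in the controls and −1.54, −1.0 and −0.92 with X-3 and fell by 2.34 ± 0.19. Suclg2, a subunit of succinyl-CoA synthetase, had values of 1.67, 1.94 and 1.75 in the controls and −0.42, −0.59 and −0.55 with X-3 and fell by 2.31 ± 0.13. The groups did not overlap in either gene, and X-3 replicate 1 was the lowest array for Idh2 but the highest X-3 array for Suclg2. Idh1, the cytosolic isocitrate dehydrogenase, fell by 1.16 ± 0.12 and Fh1, fumarase, by 1.11 ± 0.16. Among 47 genes of the respiratory chain and ATP synthase 20 fell and 0 rose (28 and 0 without X-3 replicate 1, 43 and 0 with spike-in scaling), with a median of −0.42. Ndufb5, an accessory subunit of complex I, had values of 0.61, 0.69 and 0.38 in the controls and −1.06, −1.1 and −1.05 with X-3 and fell by 1.63 ± 0.13, while Ndufs8, another complex I subunit, fell by 0.97 ± 0.16 and Sdhb, the iron-sulfur subunit of succinate dehydrogenase, by 1.06 ± 0.12. Of 40 mitochondrial ribosomal proteins 13 fell and 3 rose (26 and 4 without X-3 replicate 1, 35 and 0 with spike-in scaling), with a median of −0.28, led by Mrps28 (−1.17 ± 0.24) and Mrpl2 (−1.14 ± 0.18). The share of these that fell was closer to that of all genes than for the cycle or the respiratory chain. Ppargc1b, a coactivator of mitochondrial genes, had values of 0.82, 1.09 and 0.83 in the controls and −2.22, −1.44 and −1.8 with X-3 and fell by 2.73 ± 0.22.

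Genes of fatty acid oxidation had the lowest median of these metabolic lists. Of 38 genes of fatty acid oxidation and the peroxisome 24 fell and 3 rose (25 and 3 without X-3 replicate 1, 31 and 0 with spike-in scaling), against 25.5% and 26.8% of all genes. Their median was −0.65, and −0.49, −0.70 and −0.70 by slide. Acaa1a, the peroxisomal thiolase, had values of 5.68, 5.91 and 5.78 in the controls and 4.16, 3.94 and 3.85 with X-3 and fell by 1.8 ± 0.14. Decr1, which prepares unsaturated chains for oxidation, fell by 1.8 ± 0.15, and Eci1, an enoyl-CoA isomerase of the same route, by 1.74 ± 0.11. Eci1 was also the tightest of the group, at 3.84, 3.86 and 3.85 on the controls and 2.13, 2.08 and 2.13 with X-3. Pex14, part of the peroxisomal import pore, fell by 1.5 ± 0.47, but on slide 1 both arrays were about 1 unit above the others and the call was lost without control replicate 1 or 3 or X-3 replicate 2 or 3 (adjusted p = 0.0509 to 0.0991). The members that rose were Ucp2, an uncoupling protein (1.45 ± 0.3; 0.38 and not called with spike-in scaling), Ppard, a lipid-sensing receptor (0.58 ± 0.15), and Pex19, a peroxisomal chaperone (0.56 ± 0.13). With spike-in scaling Ppard (−0.24) and Pex19 (−0.19) had the opposite sign, and the Ppard call was also lost without X-3 replicate 2 (adjusted p = 0.0596).

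Genes of mitosis mostly fell. Of 57 genes of mitosis, kinetochore and spindle 47 fell and 0 rose (52 and 0 without X-3 replicate 1), against 25.5% and 26.8% of all genes. With spike-in scaling it was 57 and 0, where 9149 of all 16541 genes were lower and 1942 higher. The median of the mitosis genes was −1.34, and −1.06, −1.27 and −1.39 by slide. The promoters of 3 of them are shown because most windows of this list hold CCAAT, the box bound by the factor NF-Y; capitals mark CCAAT and, in Cdc20, the letters TTTGAA, a repressive element of cell cycle genes.
Cenpf (chr1:189688087-189688336, minus strand): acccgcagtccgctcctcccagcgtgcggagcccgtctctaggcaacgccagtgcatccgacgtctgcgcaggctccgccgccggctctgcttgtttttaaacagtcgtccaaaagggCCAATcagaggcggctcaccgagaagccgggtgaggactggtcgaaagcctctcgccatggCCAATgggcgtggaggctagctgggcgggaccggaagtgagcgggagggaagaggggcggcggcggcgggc
Plk1 (chr7:122159185-122159434, plus strand): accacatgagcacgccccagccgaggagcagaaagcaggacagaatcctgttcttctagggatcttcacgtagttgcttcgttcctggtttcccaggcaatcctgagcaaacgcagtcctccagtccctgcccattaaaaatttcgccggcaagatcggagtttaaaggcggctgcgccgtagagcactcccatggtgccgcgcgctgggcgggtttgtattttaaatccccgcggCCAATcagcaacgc
Cdc20 (chr4:118437344-118437593, minus strand): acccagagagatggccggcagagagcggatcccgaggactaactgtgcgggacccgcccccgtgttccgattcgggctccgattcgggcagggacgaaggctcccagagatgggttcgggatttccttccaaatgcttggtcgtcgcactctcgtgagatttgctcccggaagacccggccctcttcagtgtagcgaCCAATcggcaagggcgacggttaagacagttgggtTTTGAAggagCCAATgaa
These are again the 250 bases before the start, from RefSeq on GRCm38.p6. CCAAT on either strand was in 37 of 51 windows of the list (72.5%), against 35.5% for all tested genes and 33.8% of all windows. TTTGAA on either strand was in 21 of 51 (41.2%), against 10.9% and 16%. As before, a match describes letters and not a working site.

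Cenpf, a kinetochore protein of dividing cells, had values of 0.47, 0.32 and 0.4 in the controls and −2.5, −2.88 and −2.97 with X-3 and fell by 3.18 ± 0.16 (9.09-fold, adjusted p = 3.27e-05). Plk1, a kinase that drives mitosis, had values of 1.25, 0.79 and 0.92 in the controls and −1.08, −1.73 and −1.73 with X-3 and fell by 2.5 ± 0.23. Both genes were lower on every X-3 array than on any control, with X-3 replicate 1 the highest of the X-3 arrays. The spindle kinase Aurka fell by 2.58 ± 0.18, Cenpe, a kinetochore motor, by 2.33 ± 0.16, and Cdc20, an activator of the anaphase ligase, by 2.28 ± 0.13. Mki67, a common marker of cycling cells, was not called: its values were 2.31, 2.47 and 2.5 in the controls and 2.3, 1.84 and 2.01 with X-3, a difference of −0.38 ± 0.16 (adjusted p = 0.0822), and it passed without X-3 replicate 1 (−0.5, adjusted p = 0.0117).

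Of 48 genes of DNA replication and nucleotide supply 22 fell and 4 rose (29 and 4 without X-3 replicate 1, 42 and 0 with spike-in scaling), against 25.5% and 26.8% of all genes. Their median was −0.36. Pola1, the catalytic subunit of the polymerase that primes DNA synthesis, fell by 1.83 ± 0.39, Tk1, a thymidine kinase of S phase, by 1.73 ± 0.13, and Rfc5, a clamp loader subunit, by 1.34 ± 0.16. Orc1, part of the origin recognition complex, rose by 0.91 ± 0.15, which spike-in scaling reduced to 0.14. Among 32 cyclins, E2F factors and cell cycle inhibitors 5 rose and 9 fell (6 and 12 without X-3 replicate 1, 4 and 21 with spike-in scaling), where 26.8% of all genes rose and 25.5% fell. Cdkn1a, the p21 inhibitor of cyclin-dependent kinases, had values of 1.89, 1.89 and 1.85 in the controls and 4.5, 3.79 and 3.75 with X-3 and rose by 2.14 ± 0.22. Ccnd1, the cyclin of G1 phase, had values of 2.55, 2.32 and 2.35 in the controls and 0.78, 0.46 and 0.27 with X-3 and fell by 1.9 ± 0.17. E2f1, an S phase transcription factor, rose by 1.65 ± 0.15, and Myc, a growth-promoting transcription factor, by 1.62 ± 0.19. Of 32 p53 targets 5 rose and 8 fell (8 and 10 without X-3 replicate 1, 3 and 17 with spike-in scaling), a share of calls below that of all genes. Btg2, an antiproliferative p53 target, rose by 2.15 ± 0.35, and Bcl2, which blocks apoptosis, fell by 2.37 ± 0.16 at its brightest of 3 probes (−0.41 at the weakest).

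**Figure D3:**
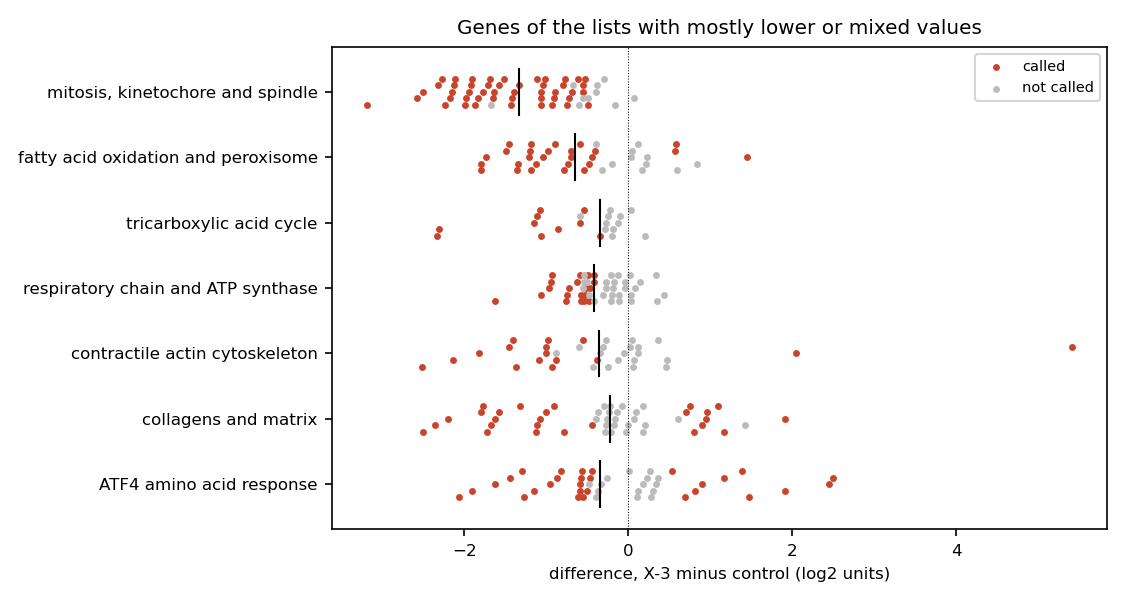
Difference between X-3 and control (horizontal axis, log2 units) of each tested gene in 7 lists, with called genes in red, genes not called in grey and the list median as a vertical bar. All 47 called mitosis genes lie left of 0, whereas the matrix and ATF4 lists hold called genes on both sides, and Mrtfb stands far to the right of the actin list.

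Immediate early genes were high 24 h after X-3 was added. Of 35 genes 30 rose and 0 fell (31 and 0 without X-3 replicate 1, 28 and 4 with spike-in scaling), against 26.8% and 25.5% of all genes. Their median was 1.87, and 1.81, 2.00 and 1.81 by slide. Atf3, a stress-induced repressor, had values of −2.08, −1.85 and −1.99 in the controls and 2.45, 2.62 and 2.76 with X-3 and rose by 4.58 ± 0.14 (24.0-fold). Fosl1, a partner of Jun, rose by 3.68 ± 0.14. Fos itself had values of −3.17, −3.5 and −3.33 in the controls and 0.48, −0.38 and −0.14 with X-3 and rose by 3.32 ± 0.24. Ier3, an inducible survival factor, was less even, with values of 0.46, −0.54 and 0.09 in the controls and 3.17, 4.8 and 4.62 with X-3 and a rise of 4.19 ± 0.47; X-3 replicate 1 was its lowest X-3 array. In all 4 the groups were separate.

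Of 25 ERK feedback and EGF receptor ligand genes 14 rose and 7 fell (14 and 7 without X-3 replicate 1, 10 and 10 with spike-in scaling), against 26.8% and 25.5% of all genes. Their median was 0.91. The ligands Hbegf and Ereg rose: Hbegf had values of −0.96, −1.61 and −1.29 in the controls and 2.61, 3.65 and 3.87 with X-3 and rose by 4.66 ± 0.35, and Ereg by 3.42 ± 0.17, with 1.92 at its other probe. The phosphatases Dusp2 and Dusp16, which switch off MAP kinases, rose by 2.43 ± 0.13 and 1.97 ± 0.17. The receptor Egfr fell by 1.63 ± 0.14 and the feedback inhibitor Spry1 by 1.31 ± 0.13. Etv5, a transcription factor induced by ERK, fell by 1.94 ± 0.16 at its brightest probe, which was above background on 2 of 3 X-3 arrays, but was at 0.19 at its other probe.

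Cytokine and inflammatory genes rose in most cases, where 26.8% of all genes rose and 25.5% fell. Of 38 genes for prostaglandins, cytokines and chemokines 25 rose and 5 fell (26 and 5 without X-3 replicate 1, 18 and 11 with spike-in scaling), with a median of 1.11. Csf2, the granulocyte-macrophage colony-stimulating factor, was not well above background in the controls, had values of −2.17, −2.31 and −2.58 with X-3, and was at least 13.2-fold higher (adjusted p = 1.24e-05). Csf3, the granulocyte factor, was at least 3-fold higher (adjusted p = 0.000165; not called after normexp, adjusted p = 0.101). Ptgs2, the inducible cyclooxygenase, had values of −3.3, −3.0 and −2.88 in the controls and 0.93, 1.06 and 0.92 with X-3 and rose by 4.03 ± 0.15. Lifr, a receptor of the interleukin 6 family, rose by 3.41 ± 0.13 at its brightest probe, with its 5 probes between −0.64 and 3.41. Socs2, which dampens growth hormone signals, fell by 2.14 ± 0.17, Ccl11, an eosinophil chemokine, by 1.72 ± 0.24 and Il18, an inflammasome cytokine, by 1.43 ± 0.12. After normexp the difference of Ccl11 was −0.64. Among 30 genes of the NF-kB pathway 17 rose and 3 fell (18 and 6 without X-3 replicate 1, 8 and 8 with spike-in scaling), with a median of 0.67. Lcn2, an iron-scavenging acute-phase protein, had values of −1.88, −1.87 and −1.76 in the controls and 3.11, 2.65 and 2.22 with X-3 and rose by 4.49 ± 0.23. The acute-phase protein Saa3 rose by 3.03 ± 0.16, the cofactor Nfkbiz by 2.68 ± 0.15 and the feedback inhibitor Tnfaip3 by 2.18 ± 0.16.

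Interferon genes rose in 31 of 45 cases and fell in 4 (35 and 4 without X-3 replicate 1, 15 and 7 with spike-in scaling), against 26.8% and 25.5% of all genes. Their median was 0.96. Rsad2, an antiviral enzyme, had values of −2.07, −0.9 and −1.56 in the controls and 2.12, 1.91 and 1.71 with X-3 and rose by 3.42 ± 0.3. Zbp1, a sensor of unusual nucleic acids, had values of −2.13, −2.16 and −2.56 in the controls and 1.1, 0.71 and 0.05 with X-3 and rose by 2.9 ± 0.28. The control arrays spread by more than 1 unit for Rsad2 and the X-3 arrays for Zbp1, yet the groups were separate in both. Gbp2, an interferon-induced GTPase, rose by 2.75 ± 0.17. Ifnb1, interferon beta, was not well above background in the controls and was at least 4.14-fold higher with X-3 (adjusted p = 0.000236). Ifi202b, an interferon-inducible DNA-binding protein, fell by 2.23 ± 0.19.

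Markers of other cell types are given beside these inflammatory lists. Leukocyte markers had 4 tested members of 8, and 3 rose. Their summed level, in units of the 75th percentile, was 1.56 to 1.98 on the controls and 3.35 to 3.76 with X-3, a sum over probes that has no meaning against other lists. Csf1r and Cd14 rose by 1.26 ± 0.14 and 1.08 ± 0.14, neither of them called with spike-in scaling, whereas the defining markers Adgre1, Itgam and Ms4a1 were above background on no array and Ptprc on 1 X-3 array. The epithelial keratins Krt8 and Krt18 rose by 2.39 ± 0.13 and 1.97 ± 0.48 (Krt18 was not called after normexp, adjusted p = 0.392), and Epcam and Cdh1 were above background on no array.

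**Figure D4:**
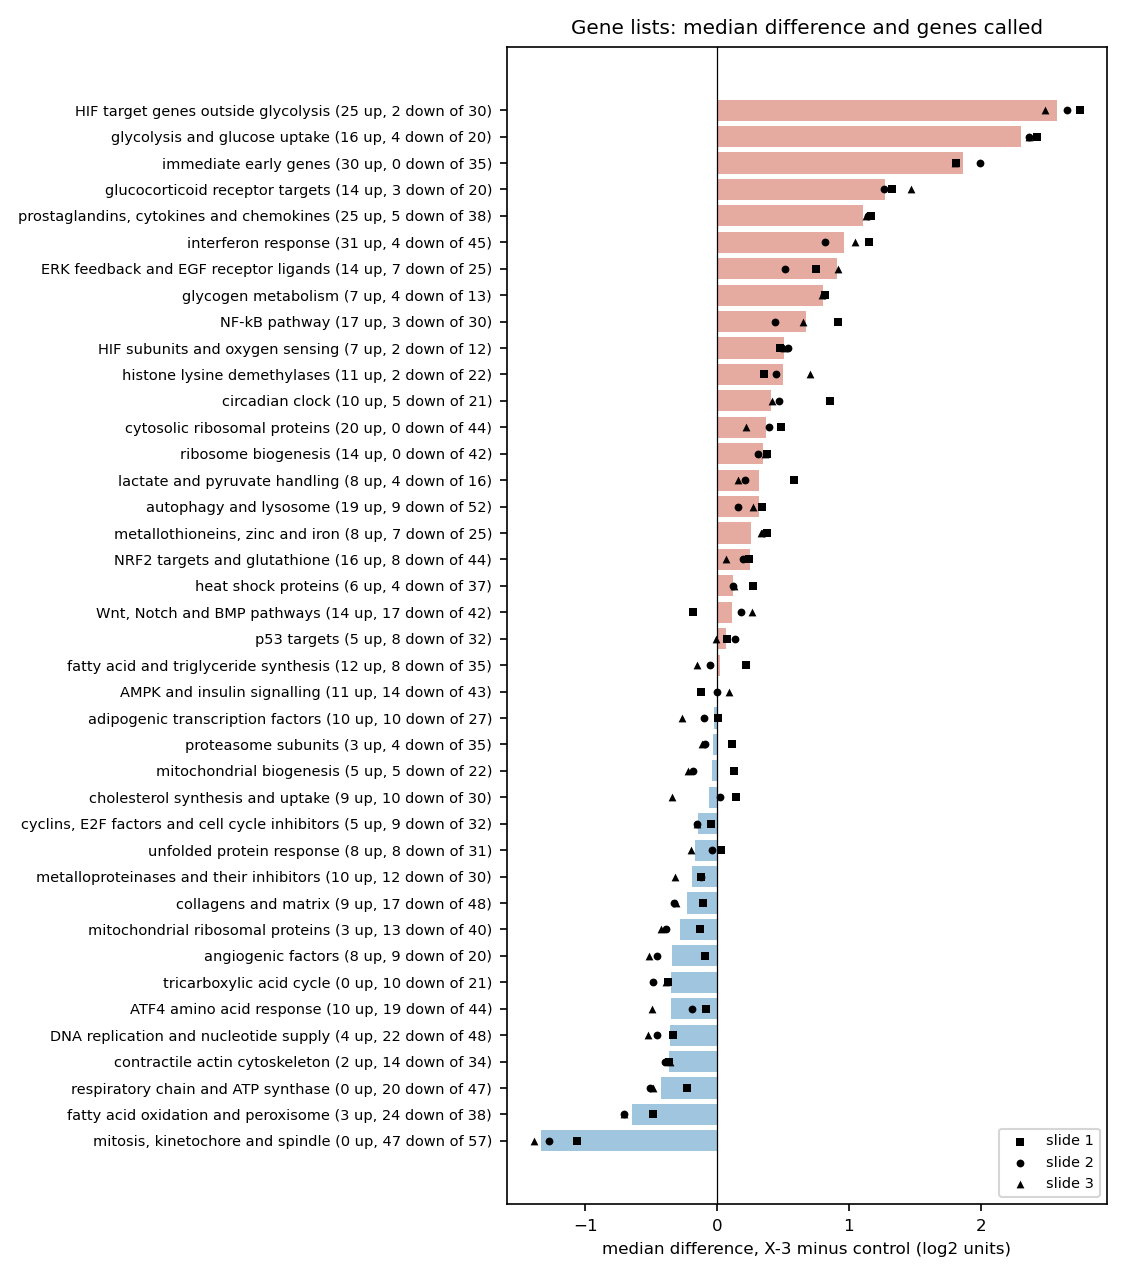
Median difference between X-3 and control (bars, horizontal axis in log2 units) for 40 gene lists with their counts of called genes, and the median on each slide as a symbol. HIF targets, glycolysis and immediate early genes have the highest medians (2.58, 2.30 and 1.87), mitosis the lowest (−1.34), and the 3 slides have the same sign for each of these lists.

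Genes of stress pathways moved in both directions, where 26.8% of all genes rose and 25.5% fell. Among 44 genes of the NRF2 and glutathione system 16 rose and 8 fell (17 and 12 without X-3 replicate 1, 8 and 22 with spike-in scaling), with a median of 0.25. Gsta2, a glutathione transferase, was at least 11.7-fold higher than in the controls, where it was not well above background (adjusted p = 3.04e-05), and its relative Gsta1 rose by 3.45 ± 0.15. Srxn1, sulfiredoxin, had values of 3.29, 3.5 and 3.21 in the controls and 5.6, 5.63 and 5.58 with X-3 and rose by 2.27 ± 0.13. Other transferases fell, Mgst3 by 1.9 ± 0.2 and Gstt1 by 1.61 ± 0.13. Of 44 genes of the ATF4 amino acid response 10 rose and 19 fell (10 and 20 without X-3 replicate 1, 5 and 29 with spike-in scaling), with a median of −0.35. Atf4 itself rose by 1.48 ± 0.13, as did Ddit4, an inhibitor of mTOR (2.45 ± 0.37), Ppp1r15a, which restores translation after stress (2.49 ± 0.12), and the stress hormone Gdf15 (1.91 ± 0.14). Phgdh, the first enzyme of serine synthesis, had values of 6.14, 6.17 and 6.15 in the controls and 4.32, 4.15 and 3.78 with X-3 and fell by 2.07 ± 0.16. Of 31 genes of the unfolded protein response 8 rose and 8 fell (9 and 12 without X-3 replicate 1, 3 and 22 with spike-in scaling). The ER stress sensor Ern1 had values of −2.67, −2.65 and −2.65 in the controls and 0.02, 0.12 and 0.09 with X-3 and rose by 2.73 ± 0.11, and the ER chaperone partner Dnajb9 rose by 2.87 ± 0.17. Cryab, a small heat shock protein, fell by 2.71 ± 0.16 in a list where 6 of 37 rose and 4 fell (1 and 21 with spike-in scaling).

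Clock output and glucocorticoid target genes included large rises, where 26.8% of all genes rose and 25.5% fell. Of 21 clock genes 10 rose and 5 fell (11 and 5 without X-3 replicate 1, 6 and 8 with spike-in scaling), with a median of 0.41. Ciart, a repressor within the clock, had values of −1.96, −2.53 and −2.46 in the controls and 2.99, 2.15 and 2.17 with X-3 and rose by 4.75 ± 0.28. The repressors Bhlhe41 and Bhlhe40, the latter also a HIF target, rose by 3.86 ± 0.17 and 2.9 ± 0.12, and Per2 by 2.26 ± 0.14. Per3, another period gene, fell by 1.92 ± 0.27 and Dbp, a clock output factor, by 1.88 ± 0.15. Among 20 targets of the glucocorticoid receptor 14 rose and 3 fell (15 and 3 without X-3 replicate 1, 12 and 4 with spike-in scaling), with a median of 1.27. Cebpd, an early adipogenic factor, had values of 4.53, 4.16 and 4.15 in the controls and 7.51, 6.92 and 6.77 with X-3 and rose by 2.79 ± 0.23, while Sgk1, a kinase, had values of 3.79, 3.94 and 4.07 in the controls and 2.07, 1.48 and 1.41 with X-3 and fell by 2.29 ± 0.2.

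Most histone lysine demethylases need oxygen and 2-oxoglutarate, as the HIF hydroxylases do. Genes of this list rose in 11 of 22 cases and fell in 2 (12 and 2 without X-3 replicate 1, 4 and 9 with spike-in scaling), against 26.8% and 25.5% of all genes. Their median was 0.50. Jmjd6, a related oxygenase, had values of 0.78, 0.99 and 0.85 in the controls and 3.93, 4.2 and 4.22 with X-3 and rose by 3.24 ± 0.14. Kdm4b rose by 1.85 ± 0.13, Kdm6b by 1.81 ± 0.16 and Kdm3a by 1.34 ± 0.16, the last of them not called with spike-in scaling (0.44). Phf8 fell by 1.23 ± 0.19.

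Adipogenic factors were mixed, as were all genes tested (26.8% rose and 25.5% fell). Of 27 adipogenic transcription factors 10 rose and 10 fell (10 and 12 without X-3 replicate 1, 7 and 15 with spike-in scaling), with a median of −0.02. Pparg, the central regulator of adipocyte formation, had values of 2.46, 2.3 and 2.42 in the controls and 2.38, 1.79 and 1.89 with X-3; X-3 replicate 1 lay among the controls, the difference was −0.38 ± 0.18 (adjusted p = 0.129), and without that array Pparg was called (−0.56, adjusted p = 0.00539). Klf5, an early adipogenic factor, had values of 0.27, 0.64 and 0.64 in the controls and 3.54, 3.46 and 3.51 with X-3 and rose by 2.99 ± 0.15. Cebpa rose by 1.04 ± 0.19. Zfp423, which marks commitment to the fat lineage, had values of −1.68, −1.63 and −1.83 in the controls and −4.34, −4.2 and −4.26 with X-3 and fell by 2.56 ± 0.12, with −0.52 at its other probe. Of 10 tested genes of mature adipocytes 4 rose and 4 fell (4 and 4 without X-3 replicate 1, 2 and 5 with spike-in scaling), with a median of 0.26. Dgat2, given above, had the largest rise. Fabp4, a fatty acid carrier of adipocytes, fell by 2.48 ± 0.2, and Plin4 and Car3, also adipocyte genes, by 2.34 ± 0.13 and 2.12 ± 0.46. Car3 was above background on only 2 X-3 arrays. Its difference was −1.56 without X-3 replicate 1 and −0.78 after normexp. Of 43 genes of AMPK and insulin signalling 11 rose and 14 fell (14 and 16 without X-3 replicate 1, 5 and 25 with spike-in scaling). Irs1, which relays insulin signals, had values of 3.9, 4.04 and 4.03 in the controls and 1.4, 0.9 and 0.9 with X-3 and fell by 2.93 ± 0.17, with −0.45 at its other probe. Prkab2, a regulatory AMPK subunit, rose by 1.92 ± 0.13. The probes of Prkaa1, which encodes a catalytic subunit, disagreed (−1.02 ± 0.2 at the brightest and 1.86 at the other), so its direction is unsettled, and Prkaa2 did not pass the background filter.

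The largest single changes lay partly outside these lists. Cep295nl, a centrosomal protein relative, had values of −2.87, −3.19 and −3.14 in the controls and 2.93, 2.56 and 2.84 with X-3 and rose by 5.84 ± 0.16. Mrtfb, a cofactor of serum response factor, had values of −4.3, −4.16 and −4.3 in the controls and 1.31, 0.95 and 1.21 with X-3 and rose by 5.41 ± 0.14, and Ccn1, a target of that factor, rose by 2.04 ± 0.17. Of 34 genes of the contractile actin cytoskeleton 14 fell and 2 rose (18 and 5 without X-3 replicate 1, 28 and 2 with spike-in scaling), against 25.5% and 26.8% of all genes. Myl9, a myosin light chain, was down by 2.52 ± 0.15 and Acta2, smooth muscle actin, by 2.14 ± 0.23. Mfap3l rose by 4.97 ± 0.13 at the brightest of 3 probes (1.76 at the weakest), and Tcam1 by 4.79 ± 0.16. Gipr, the receptor of an incretin hormone, was not well above background in the controls and was at least 28.2-fold higher (adjusted p = 2.29e-05), and Gabpb2, a transcription factor subunit, at least 29.5-fold (adjusted p = 6.25e-05). In all, 225 higher calls were of genes dim in all controls.

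Among falls, Tmem191c, a membrane protein, had values of 1.17, 1.08 and 1.17 in the controls and −3.04, −2.98 and −2.93 with X-3 and dropped by 4.12 ± 0.11 (17.4-fold, adjusted p = 1.24e-05). Negr1, a neuronal adhesion protein, fell by 3.88 ± 0.25, and Entpd2, an enzyme that splits extracellular ATP, by 3.86 ± 0.19. Kera, the proteoglycan keratocan, had values of −0.64, −0.48 and −0.54 in the controls and −4.23, −4.38 and −4.27 with X-3 and fell by 3.74 ± 0.12. Gamt, which completes creatine synthesis, fell by 3.55 ± 0.14, and Abca9, a lipid transporter, by 3.85 ± 0.15. Sybu, which links cargo to kinesin, was not well above background on any X-3 array and was at least 7.14-fold lower (adjusted p = 5.09e-05), and the receptor Ror1 at least 5.86-fold (adjusted p = 0.000567). Collagens and matrix genes went both ways, with 17 of 48 lower and 9 higher (21 and 11 without X-3 replicate 1, 36 and 2 with spike-in scaling). Of all genes 25.5% were lower and 26.8% higher. Col8a1 and Col11a1 fell by 2.51 ± 0.18 and 2.36 ± 0.2, and Vcan, the proteoglycan versican, rose by 1.91 ± 0.14.

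X-3 was set against X-1 at the same dose and time as the only pair of compounds. Of the same 16541 genes, 791 differed (4.78%), 581 higher with X-3 (3.51%) and 210 lower (1.27%). These calls were fragile: limma called 0 genes with the slide as a block (3423 at an unadjusted p under 0.05, against 3987 without it), 0 without any 1 of the X-1 arrays or without X-3 replicate 2 or 3 (2693 to 3988 unadjusted), and 3150 (19.0%) without X-3 replicate 1. X-3 replicate 1 was further from the X-1 arrays (r of 0.974 to 0.978 across genes) than the other X-3 arrays were (0.986 to 0.987).

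Several of the leading genes above were not called as different between X-3 and X-1. Egln3 had values of 4.03, 4.21 and 4.09 with X-1, a difference of −0.47 (95% interval −0.81 to −0.13, adjusted p = 0.107). For Slc2a1 the difference was −0.3 (−0.65 to 0.05), for Slc16a3 0.26 (−0.11 to 0.63), for Csf2 0.02 (−0.34 to 0.37) and for Cenpf 0.1 (−0.3 to 0.49), so these data leave room for differences of up to 0.65 log2 units in those 4. List medians against the shared controls were 2.58 with X-3 and 2.86 with X-1 for HIF targets, 2.30 and 2.38 for glycolysis, 1.87 and 2.17 for immediate early genes, 0.96 and 1.37 for interferon genes, and −1.34 and −1.50 for mitosis.

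The 210 genes lower with X-3 than with X-1 included genes that were above control with both. Ptgs2 had values of 2.44, 2.75 and 2.51 with X-1 and was 1.6 ± 0.14 log2 units lower with X-3 than with X-1 (interval −1.93 to −1.27, adjusted p = 0.0212). Ereg had values of 1.24, 1.57 and 1.76 with X-1 and was 1.53 ± 0.19 lower with X-3, and Hcar2, a receptor for beta-hydroxybutyrate, was 1.69 ± 0.17 lower. Stfa3 and Csta1, cysteine protease inhibitors, were 2.46 ± 0.15 and 2.44 ± 0.26 lower. Mapk8, the kinase JNK1, had values of 2.86, 2.98 and 3.02 with X-1 against 1.11, 1.92 and 1.43 with X-3 and 1.2, 1.08 and 1.04 in the controls, so that X-3 and control overlapped. Of the 30 HIF targets 3 were lower with X-3 than with X-1 and 0 higher, where 1.27% of all genes were lower and 3.51% higher: Ankrd37 (−0.88 ± 0.15), Adm (−0.98 ± 0.14) and Plod2, a collagen lysyl hydroxylase (−1.07 ± 0.16). Of 44 NRF2 target genes 7 were lower and 1 higher, and of 45 interferon genes 5 were lower and 1 higher, beside the same 1.27% and 3.51% of all genes. None of these calls held with the slide as a block, which left 0 of 16541. Rsad2 was among the lower, by 1.1 ± 0.15.

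The 581 genes higher with X-3 than with X-1 included genes above control with X-3 and genes below control with both compounds. Ifnb1, not well above background with X-1, was at least 3-fold higher with X-3 than with X-1 (adjusted p = 0.0212). Csdc2, an RNA-binding protein, had values of −3.67, −3.29 and −3.22 in the controls and −4.81, −4.33 and −3.75 with X-3 and was not well above background with X-1, where X-3 was at least 2.56-fold higher (adjusted p = 0.0214). Against control Csdc2 was at −0.9 ± 0.28 with X-3 (adjusted p = 0.0341), a call lost without control replicate 2 or 3 or X-3 replicate 2 (adjusted p = 0.0978, 0.104 and 0.084), with all 9 arrays (adjusted p = 0.0572) and with no filter (adjusted p = 0.0761). Ccdc189 followed the same order, at least 2.23-fold higher (adjusted p = 0.0212). Kdm4d, a histone demethylase, was 1.89 ± 0.2 higher, with values of −5.43, −5.14 and −4.92 with X-1, −3.25, −3.53 and −3.03 with X-3 and −4.3, −4.34 and −4.04 in the controls. Among metabolic genes Idh2 was 1.24 ± 0.2 higher with X-3 than with X-1, Ucp2 1.09 ± 0.13 and Ldhb 0.96 ± 0.15. Of 38 fatty acid oxidation genes 4 were higher and 0 lower, beside 3.51% and 1.27% of all genes, and these calls too were lost with the slide as a block. Ankrd37, Adm, Plod2, Idh2, Ucp2 and Ldhb were named in these comparisons after their values were seen.

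**Figure D5:**
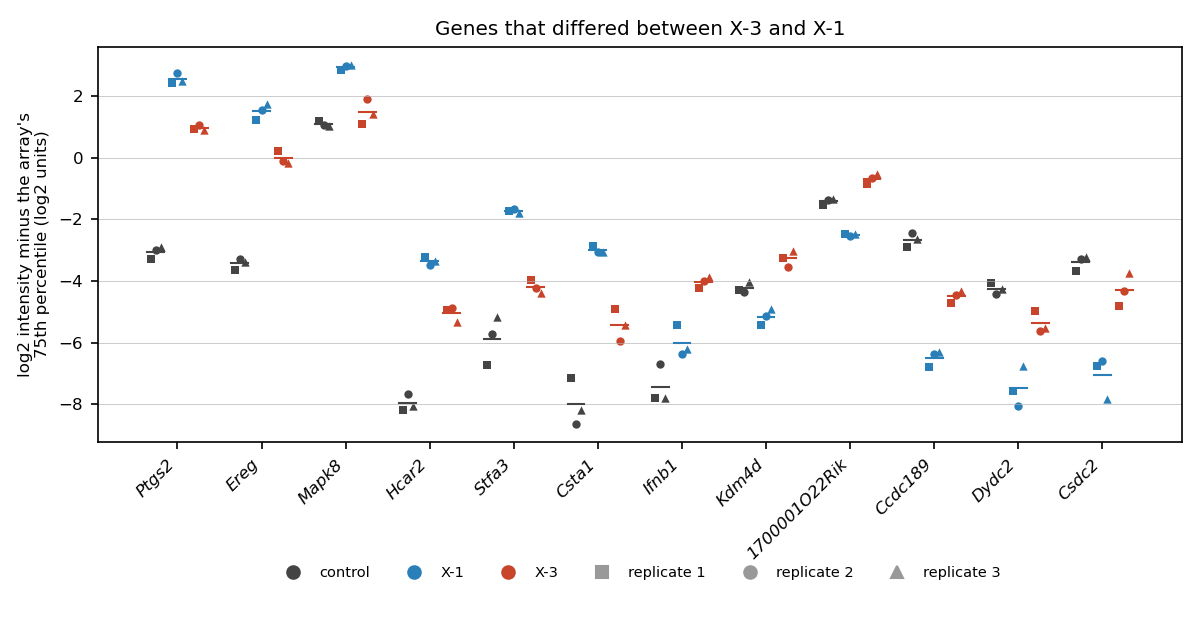
Normalised log2 intensity (vertical axis, log2 units relative to each array's 75th percentile) on the control, X-1 and X-3 arrays of the 6 genes lowest and the 6 highest with X-3 relative to X-1; symbols mark the replicate and short lines the group means. Ptgs2, Ereg and Hcar2 were higher than control with both compounds and higher with X-1 than with X-3, while Ccdc189, Dydc2 and Csdc2 had lower means than control with both and the lowest with X-1.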

How the data were processed

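RNA of each culture was hybridised to a 1-colour Agilent mouse array, 1 array per sample. The deposited scanner files hold processed spot intensity, background-subtracted within each array by Agilent Feature Extraction per the file headers, with a newer version for replicates 2 and 3; the submitters' processing notes name version 9.1. The authors also deposited a table of scores, with a median of −0.12 in each column and the form of standardised values; its scale and centring are not stated, and it was used only as an alternative.

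Control spots and outlier spots were left out, spots of a probe were averaged, and log2 intensity was set relative to each array's 75th percentile. Of 41026 probes, 24954 were well above background on all 3 arrays of either group. The brightest kept probe stood for each of 16541 genes, 3055 of them without a reference symbol; 2265 genes had probes of opposite sign. Moderated linear models with 4 residual degrees of freedom (lmFit and eBayes of limma 3.58.1, under R 4.3.3; Benjamini-Hochberg adjustment) tested 3 X-3 against 3 control arrays, and 3 X-3 against 3 X-1 arrays. The procedure was tested on simulated data with independent arrays of equal spread and few changed genes. The simulation held no outlying array and no slide effect, so it cannot show how the procedure behaves with X-3 replicate 1.

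Gene lists (44) and members were chosen with earlier results of these data known. Named genes were the 12 largest rises and falls, the 6 highest and lowest bounds, up to 4 leading and all contrary members of each list, the genes with the widest slide 1 gap, the leading differences from X-1 and a short fixed list. Cdc20, Adm, Plod2, Ankrd37 and the genes compared with X-1 beyond that rule were added after their values were seen. Symbols and promoters came from RefSeq (GRCm38.p6). Some genes that met the rule are not reported here.

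Same-numbered control and X-3 arrays share a slide and were paired by number. Their deviations from the group means correlated at r = 0.244, 0.111 and 0.245 across genes, against −0.263 to 0.146 for pairs of unlike number. Control replicate 3 with X-3 replicate 2 (0.146) and control replicate 2 with X-3 replicate 3 (0.14) exceeded the matched replicates 2 (0.111). The correlations thus set replicate 1 apart but cannot pair replicates 2 and 3. The X-1 and X-3 arrays of a slide did not all deviate together. Each group had 1 fixed array position on every slide, and the effects of position and of group cannot be told apart. The design text calls the samples independent experiments; if cultures were shared, the p-values measure technical spread. Alternatives were a slide block, all 9 arrays, array weights, each array left out, slide 1 left out, median, quantile and spike-in scaling, normexp, other background filters, the mean of probes, and the deposited scores. Normexp used median in place of mean spot signals, because replicates 2 and 3 hold no mean signal. No spot was saturated, and 57.9% to 67.1% of gene spots per array were well above background; the number of arrays limits the precision.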

Additional observations from a re-analysis of the deposited data

How the results depend on the processing

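X-3 against control gave 8648 genes, and 12973 (6408 lower) with array weights; 2610 were higher with median scaling, and 1942 higher and 9149 lower with spike-in scaling. Leaving out 1 array gave 6671 to 10487, and the slide as a replicate block gave 8918. Spike-in scaling also leaves out slide 1 and calls genes by the size of the difference alone. With it 19 tricarboxylic acid cycle genes were lower (10 before, and 15 without slide 1 alone) and 15 interferon genes higher (31 before, and 32 without slide 1 alone). The counts for HIF targets, glycolysis, immediate early, fatty acid oxidation and mitosis genes stayed within 1.5 times under all alternatives.

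X-3 against X-1 (791 genes, 581 higher and 210 lower with X-3) gave 0 with the replicate block and 0 with no filter on dim probes (3627 at an unadjusted p under 0.05 in limma), 1841 (1233 and 608) with all 9 arrays, 6632 (3172 and 3460) with array weights, 5811 (2709 and 3102) without replicate 1, 15 (11 and 4) with median scaling and 349 (215 and 134) with normexp; spike-in scaling gave 939 and 130. Same-numbered X-1 and X-3 arrays share a slide but did not all deviate together (r = −0.025, −0.175 and 0.166). Why the calls were lost under the block was not tested. Leaving out 1 array gave 0 to 3150, with 0 to 1637 higher and 0 to 1513 lower.

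Of 187 genes named, 179 were called, and over 3346 comparisons with alternatives 3256 kept direction and call, 54 lost the call, 30 gained it and 6 reversed. The reversals were Arnt (0.18) and Prkaa1 (0.42) with the mean of probes, Etv5 (0.19) with probes above background on all 6 arrays, Pex19 (−0.19) and Ppard (−0.24) with spike-in scaling and Ppard (−0.007) with normexp. The first 3 have probes of opposite sign; for the others the cause was not tested. The replicate block ended the call on Arnt among named genes. Genes dim in 1 group have only a bound there.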

Other observations

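Genes of the translation machinery shifted by small amounts, where 26.8% of all genes rose and 25.5% fell. Of 44 cytosolic ribosomal proteins 20 rose and 0 fell (24 and 1 without X-3 replicate 1, 0 and 10 with spike-in scaling), with a median of 0.37. Rps9 rose by 0.96 ± 0.16 and Rpl24 by 0.87 ± 0.14. Of 35 proteasome subunits 3 rose and 4 fell (7 and 8 without X-3 replicate 1, 1 and 25 with spike-in scaling), fewer than the 52.3% called over all genes. Psme3, an activator of the proteasome, rose by 1.57 ± 0.31, and Psmc3, an ATPase of its cap, fell by 1.06 ± 0.18. Of 52 autophagy and lysosome genes 19 rose and 9 fell (20 and 12 without X-3 replicate 1, 4 and 25 with spike-in scaling). Ctss, a lysosomal protease, had values of −5.55, −5.29 and −5.57 in the controls and −3.44, −3.01 and −3.96 with X-3 and rose by 2.0 ± 0.25, while Ctsk, another protease, fell by 1.62 ± 0.13.

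Iron, sterol and developmental signalling genes changed in both directions, as did all genes tested (26.8% rose and 25.5% fell). Among 25 genes of metallothioneins, zinc and iron 8 rose and 7 fell (9 and 7 without X-3 replicate 1, 5 and 10 with spike-in scaling). Tfrc, the transferrin receptor and a known HIF target, had values of −1.76, −1.53 and −1.82 in the controls and 0.81, 1.14 and 1.26 with X-3 and rose by 2.77 ± 0.17. Among 30 genes of cholesterol synthesis and uptake 9 rose and 10 fell (10 and 13 without X-3 replicate 1, 3 and 18 with spike-in scaling). Insig1, which holds back sterol synthesis, rose by 2.28 ± 0.15, and Mvk, mevalonate kinase, fell by 1.75 ± 0.15. Among 42 genes of the Wnt, Notch and BMP pathways 14 rose and 17 fell (16 and 18 without X-3 replicate 1, 10 and 19 with spike-in scaling). Id3, a BMP target, rose by 2.65 ± 0.14 and the Hedgehog receptor Ptch1 by 2.28 ± 0.22, while Sfrp2, a secreted Wnt modulator, fell by 2.49 ± 0.18. Among 20 angiogenic factors 8 rose and 9 fell (8 and 10 without X-3 replicate 1, 6 and 12 with spike-in scaling). Ang, angiogenin, rose by 2.94 ± 0.13, and Angpt1, a ligand of the endothelial receptor Tek, had values of −0.87, −0.44 and −0.39 in the controls and −4.09, −3.38 and −3.87 with X-3 and fell by 3.22 ± 0.23.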
